A study of Homo sapiens with 4 samples.

Results

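The genes described are 10 heat shock and chaperone genes, chosen by name: HSP90AA1, HSP90AB1, HSPA8, HSPA1A, HSPA1B, HSPH1, DNAJB1, HSPB1, HSPD1 and HSPE1. All 10 were found among the 17064 rows of the table, each in 1 row, and all 10 passed the filter of a 4-library mean of 5 FPKM, as did 7379 genes. FPKM is a fragment count divided by transcript length and by library size. The labels give the cells as KYSE-150, a long-used human line from a squamous carcinoma of the esophagus, either with normal NSUN6 or with a stable short hairpin RNA against NSUN6, an RNA methyltransferase that forms 5-methylcytosine. In both kinds of cells, treated with cycloheximide to hold ribosomes on their messages, total poly(A) RNA (input) and RNA pelleted through a sucrose cushion (polyribosome RNA) were sequenced, which gives 4 groups of 1 library each. With 1 library per group no difference has a replicate check, so no test was made and no p-value is given. The labels do not say whether the hairpin cells are 1 clone or a pool, and the sucrose cushion does not separate polyribosomes by size.

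The deposited table ends with a second line of column names that goes against its header. That line names the control columns as K150 with a hairpin against GFP and the other pair as K30 with a hairpin against Mettl1, and it gives the 2 fractions of that pair in the opposite order. The header, which has the names the samples carry, was followed here, and the second pair is called knockdown-labelled. For the 10 genes and the gene lists, changes are given in the header's order and then with the columns exchanged. NSUN6 itself was at 8.85 FPKM in the input and 10.13 FPKM in the polyribosome RNA of control cells, and at 3.83 and 0.38 FPKM in those of knockdown-labelled cells. The libraries summed to between 538002 and 627887 FPKM, with 14645 to 15081 genes above 0, and their read depth is unknown. The 7 squamous epithelium markers did not move together. KRT5 was at 906 and 1162 FPKM in the control libraries and 0.45 and 0.70 FPKM in the knockdown-labelled ones. KRT14 was also lower there, at 64.76 and 87.69 against 3.83 and 3.92 FPKM. KRT13 was at 1.56 and 2.60 against 303 and 392 FPKM, and SOX2 at 0.31 and 0.27 against 39.54 and 8.28 FPKM. KRT6A hardly differed, at 29.51 and 39.8 against 34.25 and 40.03 FPKM. TP63 was at 30.25 and 28.77 against 23.66 and 2.16 FPKM, and DSG3 at 3.45 and 2.86 against 1.83 and 0.33 FPKM. The 4 general epithelial markers summed to 3207 to 4771 FPKM in every library, and no marker of fibroblasts, endothelium or leukocytes, 12 in all, was above 2.58 FPKM. Differences between the 2 kinds of cells therefore may include those of another cell line, which cannot be told apart here from the hairpin.

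Heat shock proteins are molecular chaperones that bind unfolded or partly folded proteins. HSP70 proteins bind short hydrophobic stretches in a cycle of ATP hydrolysis that J-domain proteins start and nucleotide exchange factors end, and HSP90 receives kinases, steroid receptors and other clients from HSP70 for late folding steps. The transcription factor HSF1, held inactive by chaperones in unstressed cells, binds heat shock elements, inverted repeats of the bases GAA, and raises transcription of the inducible members. Many tumour cells keep chaperones and HSF1 at a high level.

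Matches to the heat shock element in the promoters are shown because it is the sequence that HSF1 binds. RefSeq promoter windows (build GRCh38.p14, 250 bases before to 50 after each start) were found for 10 of the 10 genes, 16 windows in all, since several genes have more than 1 start. The build is not the hg19 named for the expression values, and the coordinates belong to the sequences only. A run of 3 alternating units (GAA, any 2 bases, TTC, any 2 bases and GAA, on either strand) stood in windows of 4 of the 10 genes, HSP90AA1, HSP90AB1, HSPA8 and HSPD1. It stood in 0.490% of all 35116 windows and in 0.608% of 27305 genes. The shorter GAANNTTC, which reads the same on both strands and lies within each such run, stood in windows of 8 of the 10 genes and in 8.21% of all genes. No match was found in the windows of HSPH1 and HSPE1. In the lines that follow each 30-base window is written 5′ to 3′ on the gene's strand, with the matched run in capitals.
HSP90AA1, chr14:102087111-102087140, minus strand: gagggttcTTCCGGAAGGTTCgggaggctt
HSP90AB1, chr6:44247770-44247799, plus strand: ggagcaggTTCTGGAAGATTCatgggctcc
HSP90AB1, chr6:44247823-44247852, plus strand: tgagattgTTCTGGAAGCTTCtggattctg
HSPA8, chr11:123062345-123062374, minus strand: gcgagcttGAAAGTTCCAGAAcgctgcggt
HSPA8, chr11:123062170-123062199, minus strand: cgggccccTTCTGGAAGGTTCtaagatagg
HSPD1, chr2:197500061-197500090, minus strand: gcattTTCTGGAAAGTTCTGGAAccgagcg
HSPB1, chr7:76302480-76302509, plus strand: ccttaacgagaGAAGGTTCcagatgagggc
DNAJB1, chr19:14518456-14518485, minus strand: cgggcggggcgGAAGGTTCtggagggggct
DNAJB1, chr19:14518426-14518455, minus strand: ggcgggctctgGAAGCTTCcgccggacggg
In HSPD1 2 such runs overlap. They begin 245 bases before the farther HSPD1 start (197499840) and lie past the nearer one (197500274). They also lie upstream of the HSPE1 start (197500379), but beyond the 250 bases searched there. All sequences above are matches to letters. Binding of HSF1 was not measured.

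The HSP70 genes that stress induces, HSPA1A and HSPA1B, are shown at greater length because they are near copies of each other. The 116 bases around their shared GAANNTTC match (capitals) are the same at 112 positions and differ at 4.
HSPA1A, chr6:31815337-31815452, plus strand: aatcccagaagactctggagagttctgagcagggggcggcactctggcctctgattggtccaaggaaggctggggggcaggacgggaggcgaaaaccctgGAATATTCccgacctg
HSPA1B, chr6:31827533-31827648, plus strand: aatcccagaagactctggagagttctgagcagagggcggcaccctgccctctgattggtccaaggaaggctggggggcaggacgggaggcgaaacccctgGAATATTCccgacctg
Of all windows of 50 bases in the HSPA1A transcript, 72.6% occur unchanged in HSPA1B (GENCODE 29), so the split of fragments between the 2 genes is uncertain and their sum is given beside each. The same count was 0% between HSP90AA1 and HSP90AB1 and 0% between HSPA1A and HSPA8.

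In control cells the 10 genes spanned a wide range of levels, and nearly all were slightly more abundant on polyribosomes than in input. HSPB1, the small heat shock protein HSP27 that holds unfolded proteins and binds actin, was highest, at 2498.5 FPKM in input and 2792 on polyribosomes, where it ranked 10th of all genes. HSP90AB1, the constitutive cytosolic HSP90, followed at 518 and 736 FPKM. HSPA8, the constitutive HSC70 that folds new proteins and uncoats clathrin vesicles, was at 227 and 248 FPKM. HSPE1 and HSPD1, the co-chaperonin and chaperonin of the mitochondrial matrix, were at 165 and 228 FPKM and at 121 and 152 FPKM. HSP90AA1, the inducible cytosolic HSP90, was at 160 and 172 FPKM, and DNAJB1, the J-domain partner HSP40, at 125 and 144 FPKM. HSPA1B was at 66.2 and 79.4 FPKM and HSPA1A at 32.0 and 35.2 FPKM. HSPH1, the HSP110 nucleotide exchange factor, was lowest, at 12 FPKM in input and 4.52 on polyribosomes. With 1 library each, it is unknown which neighbours in this order differ beyond the spread of libraries. Fewer cells carrying a message and less of it per cell cannot be told apart in such bulk RNA.

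Translation efficiency, here the difference of log2(FPKM + 1) between polyribosome RNA and input, was above 0 in control cells for 9 of the 10 genes. It ran from 0.10 for HSP90AA1 to 0.46 for HSPE1 and 0.51 for HSP90AB1 among these 9, and HSPH1 stood apart at -1.24. The median of the 10 was 0.18, beside 0.03 over all 7379 genes. Calls were made at a 2-fold difference. HSPH1 was the 1 gene of the 10 at least 2-fold lower on control polyribosomes, where 0.759% of all genes were called lower, and 0 of the 10 were at least 2-fold higher, beside 0% of all genes. HSP90AB1 and HSPE1 were at the 98.5th and 97.4th percentile of all genes, and HSPH1 at the 0.447th.

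**Figure D1:**
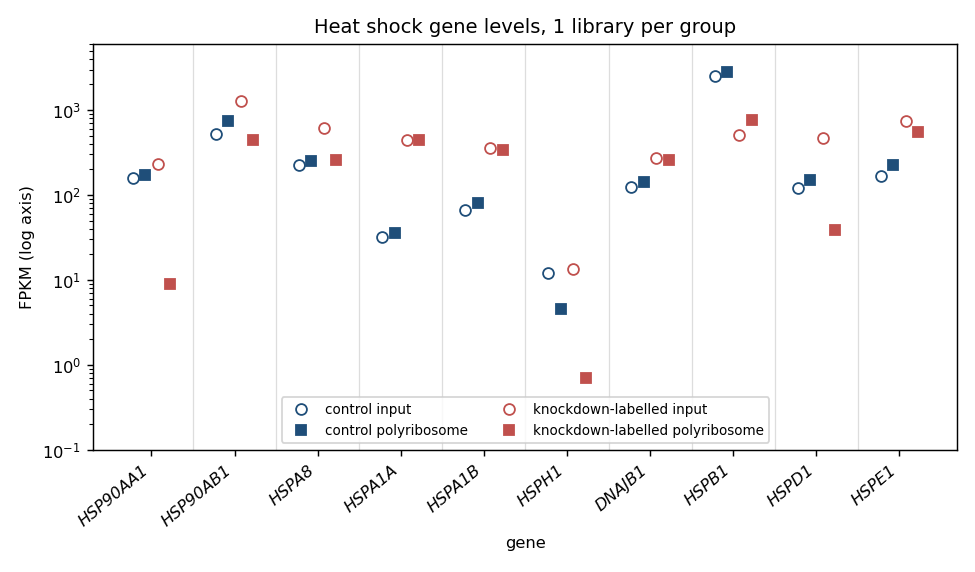
FPKM (log axis) of each of the 10 genes, with 1 point per library: open circles are input, filled squares polyribosome RNA, blue control and red knockdown-labelled. HSPA1A and HSPA1B stand higher in both red libraries than in both blue ones and HSPB1 lower, while HSP90AA1, HSP90AB1, HSPH1 and HSPD1 are lowest at the red square.

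Of the 10 genes, 5 were higher in both knockdown-labelled libraries than in both control libraries, 1 was lower in both, and 4 overlapped. These counts do not depend on which knockdown-labelled column is input. Among all 7379 genes 26.1% were higher in this way and 31.3% lower. HSPA1A had 32.0 and 35.2 FPKM in the control libraries, and the knockdown-labelled input and polyribosome libraries had 448 and 443 FPKM. Its lower knockdown-labelled value was 12.6 times its higher control value, the widest gap of the 10. HSPA1B was at 66.2 and 79.4 against 361 and 340 FPKM, a gap of 4.28 times. The sum of HSPA1A and HSPA1B was 98.2 and 115 FPKM in control and 809 and 782 FPKM in knockdown-labelled cells. HSPE1 was at 165 and 228 against 744 and 556 FPKM, a gap of 2.44 times, and DNAJB1 at 125 and 144 against 270 and 255 FPKM, a gap of 1.77 times. HSPA8 only just stood apart, with 227 and 248 against 614 and 258 FPKM, a gap of 1.04 times. With libraries rescaled to one sum, an alternative chosen after its values were seen, HSPA8 overlapped and the count was 4, beside 26.2% of all genes. HSPB1 went the other way, from 2498.5 and 2792 FPKM to 514 and 772 FPKM. Its lower control value was 3.24 times its higher knockdown-labelled value.

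In input RNA 7 of the 10 genes were at least 2-fold higher in knockdown-labelled than in control cells, beside 13.2% of all genes, and 1 was at least 2-fold lower, beside 14.4%. With HSPA1A and HSPA1B added and counted as 1 gene, 6 were higher and 1 lower. Differences are of log2(FPKM + 1), knockdown-labelled minus control. The median of the 10 was 1.36, beside 0.01 over all genes. The inducible HSP70 genes were furthest up, HSPA1A by 3.77 and HSPA1B by 2.43 (their sum by 3.03). The mitochondrial pair followed, HSPE1 with 2.16 and HSPD1 with 1.94, then HSPA8 with 1.43, HSP90AB1 with 1.28 and DNAJB1 with 1.11. HSP90AA1, at 160 and 232 FPKM, differed by 0.54, and HSPH1, at 12 and 13.4 FPKM, by 0.15. HSPB1 was lower, at -2.28, the 2.94th percentile of all genes. In the other column order 4 genes passed 2-fold upward and 4 downward, among the latter HSP90AA1 (-4.01), HSPH1 (-2.93) and HSPD1 (-1.62), beside 15.9% and 31.8% of all genes. HSPA1A, HSPA1B, HSPE1 and DNAJB1 were called higher in both orders (3.75, 2.34, 1.74 and 1.03 with the columns exchanged), and HSPB1 lower in both (-1.69).

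In polyribosome RNA 3 of the 10 genes were at least 2-fold higher in knockdown-labelled cells, beside 16.7% of all genes, and 4 were at least 2-fold lower, beside 32.9%. With HSPA1A and HSPA1B added and counted as 1 gene, 2 were higher and 4 lower. The median of the 10 was -0.34, and that of all genes -0.28. HSPA1A was higher by 3.62, HSPA1B by 2.08 and HSPE1 by 1.28. DNAJB1, at 144 and 255 FPKM, differed by 0.82, and HSPA8, at 248 and 258 FPKM, by 0.05, which became -0.10 with libraries rescaled to one sum. HSP90AB1, at 736 and 442 FPKM, differed by -0.74. HSP90AA1 was lowest of the 10 by difference, at 172 and 8.97 FPKM, or -4.11, followed by HSPD1, at 152 and 38.8 FPKM, or -1.94. HSPB1 was at -1.85 and HSPH1, at 4.52 and 0.70 FPKM, at -1.70. HSPH1 was not past 2-fold with 5 added (-0.74) or with GC content and length removed (-0.23), which leaves 3 genes lower. With the columns exchanged, HSPA1A, HSPA1B and HSPE1 were still called higher (3.63, 2.17 and 1.70) and HSPB1 still lower (-2.44), while HSP90AA1, HSPD1, HSPH1 and HSP90AB1 were at 0.43, 1.62, 1.38 and 0.78. In that order 6 genes were past 2-fold upward and 1 downward, beside 12.7% and 13.97% of all genes.

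**Figure D2:**
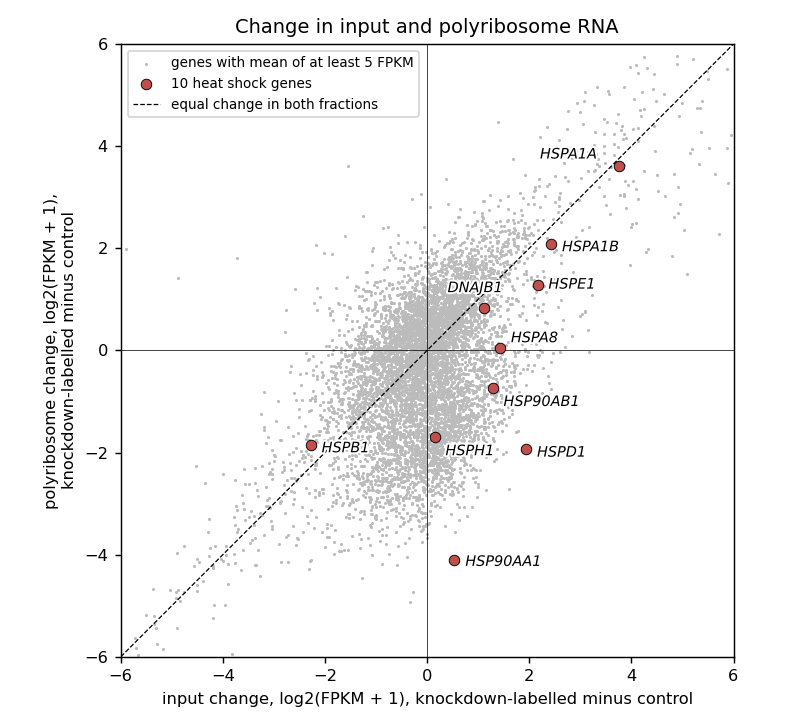
Change in input RNA (x axis) and in polyribosome RNA (y axis), both as knockdown-labelled minus control log2(FPKM + 1), for the genes past the filter (grey) and the 10 heat shock genes (red); 54 grey genes lie outside the axes, which end at 6. HSPA1A, HSPA1B and HSPB1 lie close to the dashed line of equal change, and HSP90AA1 (0.54, -4.11) and HSPD1 (1.94, -1.94) lie far below it.

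The study's own comparison is that of translation efficiency between knockdown-labelled and control cells. In the header's column order 5 of the 10 genes had an efficiency at least 2-fold lower in knockdown-labelled cells, beside 30.1% of all genes, and 0 had one at least 2-fold higher, beside 12% of all genes. The median change of the 10 was -1.13, beside -0.12 over all genes. In knockdown-labelled cells alone, polyribosome RNA was at least 2-fold below input for 5 of the 10 genes, beside 28.8% of all genes. It was at least 2-fold above input for 0, beside 8.62%. The 5 genes were the same by name in both counts, HSP90AA1, HSPD1, HSP90AB1, HSPH1 and HSPA8. With a trend on GC content and length removed, HSPA8 (-0.68) left the second count, which was then 4, beside 14.2% of all genes.

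The cytosolic HSP90 genes parted from each other. HSP90AA1 had 3.87% of its input FPKM on knockdown-labelled polyribosomes and 108% on control polyribosomes, a change in log2 efficiency from 0.10 to -4.55, or -4.65. HSP90AB1 had 35.0% and 142%, a change from 0.51 to -1.51, or -2.02. Of the FPKM of the pair, HSP90AA1 made up 23.5% in the input and 18.9% in the polyribosome RNA of control cells, 15.5% in knockdown-labelled input and 1.99% on knockdown-labelled polyribosomes. These shares are taken within a library and do not move with its scaling. In the authors' deposited table, which adds 5 FPKM to both fractions, the efficiency ratio of HSP90AA1 was 1.07 for control cells and 0.0590 for the others, and that of HSP90AB1 was 1.42 and 0.353.

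The mitochondrial chaperonin pair also parted, although the genes lie head to head. By RefSeq the start of HSPE1 is 105 bases from the nearer start of HSPD1 and 539 bases from the other, on opposite strands. Of the FPKM of this pair, HSPD1 made up 42.3% in the input and 39.9% in the polyribosome RNA of control cells and 38.6% in knockdown-labelled input, but 6.53% on knockdown-labelled polyribosomes. Its log2 efficiency went from 0.32 to -3.56, a change of -3.88, and that of HSPE1 from 0.46 to -0.42, a change of -0.88. The read-through gene HSPE1-MOB4 was listed at 0 in all 4 libraries.

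Among HSPA8, HSPA1A and HSPA1B the constitutive HSPA8 changed most in these values. HSPA8 changed from 0.13 to -1.25, or by -1.37, whereas HSPA1A went from 0.13 to -0.02 and HSPA1B from 0.26 to -0.09, changes of -0.15 and -0.35 (-0.27 for their sum). With a trend on GC content and length removed, the order was the reverse, at -0.75 for HSPA8, -0.94 for HSPA1A and -1.03 for HSPA1B. HSPA1A and HSPA1B together made up 30.2% of the FPKM they share with HSPA8 in control input and 31.6% in control polyribosome RNA. In knockdown-labelled cells that share was 56.9% in input and 75.2% on polyribosomes. DNAJB1 changed by -0.28 and HSPB1 by 0.42, the 1 positive change among the 10. HSPH1 changed by -1.85, from 4.52 FPKM on control polyribosomes to 0.70, and such a low level makes the size depend on the added constant (-0.85 with 5 added in place of 1, -2.69 with 0.1).

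With the knockdown-labelled columns exchanged, the 5 low genes were high. HSP90AA1 was then at 4.44, HSPH1 at 4.32, HSPD1 at 3.24, HSPA8 at 1.12 and HSP90AB1 at 1.01, so 5 of the 10 passed 2-fold upward and 0 downward, beside 27.8% and 6.29% of all genes. The direction of every efficiency change past 2-fold among the 10 genes thus rests on the column order. HSPA1A (-0.11), HSPA1B (-0.17) and DNAJB1 (-0.12) stayed near 0. HSPE1 went from -0.88 to -0.04, and HSPB1 from 0.42 to -0.74.

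**Figure D3:**
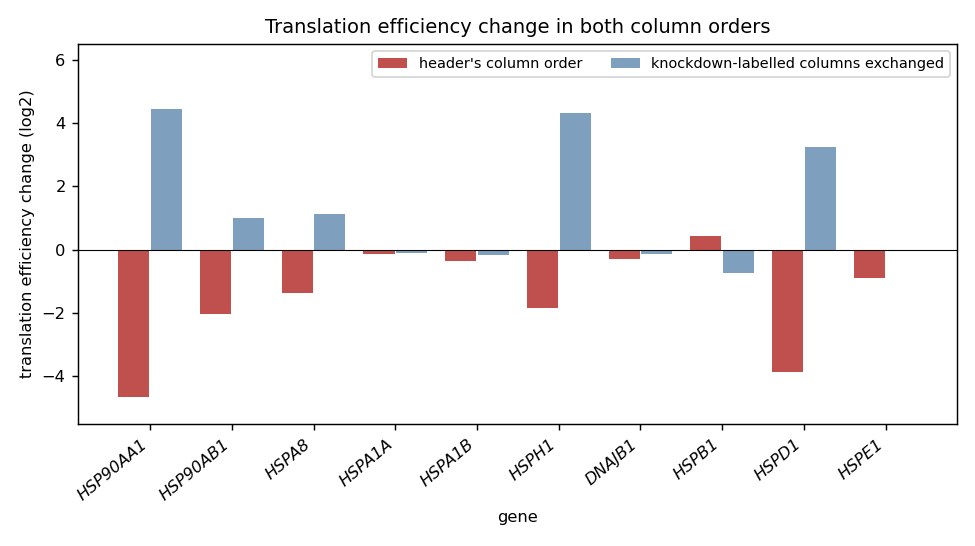
Change in log2 translation efficiency of the 10 genes, knockdown-labelled minus control, with the columns as in the header (red) and with the 2 knockdown-labelled columns exchanged (blue). HSP90AA1, HSP90AB1, HSPA8, HSPH1 and HSPD1 go from below to above 0 and HSPB1 the other way, and the bars of HSPA1A, HSPA1B and DNAJB1 are short in both.

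The change in efficiency followed the GC content of the transcripts, among the 10 genes and among all genes. GC content was taken from 1 GENCODE 29 transcript per gene. HSPH1 (39.95% GC), HSP90AA1 (43.0%), HSPD1 (44.2%), HSPA8 (47.0%) and HSP90AB1 (48.1%) were the 5 genes at least 2-fold lower. HSPE1 (50.2%), DNAJB1 (53.0%), HSPA1B (58.7%), HSPA1A (59.7%) and HSPB1 (64.5%) were the other 5. Over the 10 genes Pearson's r between GC content and efficiency change was 0.79 and Spearman's rho 0.89, and over the 7345 genes with a matched transcript they were 0.75 and 0.78. All points share the same 4 libraries, and genes are not independent replicates. Of the 1469 genes lowest in GC content (up to 43.8%), 81.3% were at least 2-fold lower in efficiency, and of the 1469 highest (from 60.2%) 0% were. GC content was related in this way to the polyribosome change (r 0.54 over all genes) and hardly to the input change (-0.07) or the control efficiency (0.06). With the columns exchanged these values were -0.09 for the polyribosome change and 0.55 for the input change, so the relation went with the column headed knockdown polyribosome in either order. RNA quality was not given in the sources used here, and its part in the result was not tested.

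Transcript length ran from 909 bases for HSPB1 and 950 for HSPE1 to 3379 for HSP90AA1 and 5191 for HSPH1, and Pearson's r of its log2 with the efficiency change was -0.49 over the 10 genes and -0.22 over all genes. With a trend on GC content and length removed across all genes, HSP90AA1 was at -3.47 and HSPD1 at -2.91, the 0.0408th and 0.123rd percentile of all genes. HSP90AB1 was then at -1.52, HSPB1 at -1.18, HSPE1 at -1.07, HSPA1B at -1.03 and HSPA1A at -0.94. HSPA8 was at -0.75, DNAJB1 at -0.39 and HSPH1 at -0.25, beside a median of -0.40 for all genes. In this form 6 of the 10 genes were at least 2-fold lower, beside 17.5% of all genes. HSPB1 changed sign, from 0.42, and HSPH1 and HSPA8 were no longer past 2-fold.

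**Figure D4:**
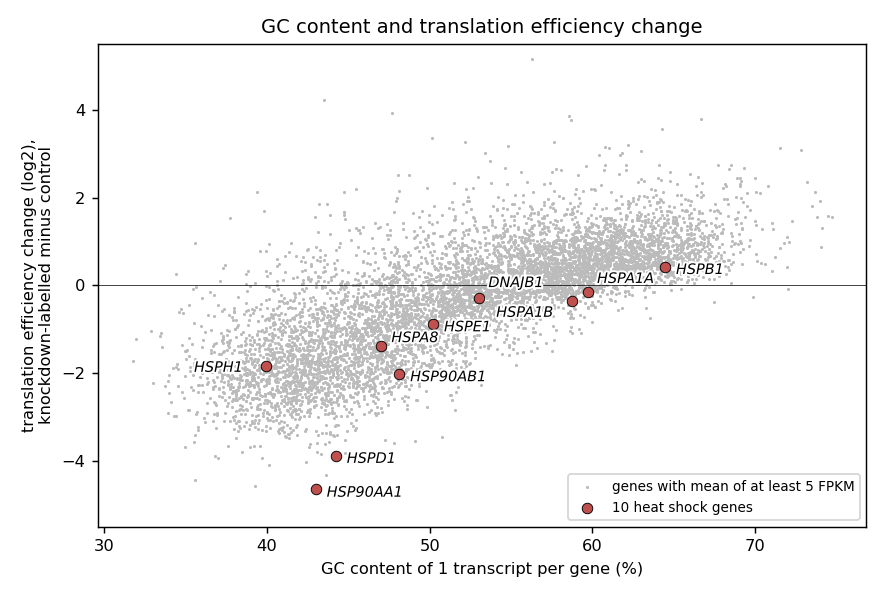
GC content of 1 transcript per gene (x axis, %) and change in log2 translation efficiency in the header's column order (y axis) for the genes past the filter (grey; 7 lie outside the y axis) and the 10 heat shock genes (red). The red points climb from HSPH1 and HSP90AA1 at the left to HSPB1 at the right with the grey cloud, and HSP90AA1 and HSPD1 lie below its bulk.

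Of 6 relatives outside the 10 genes, 4 had an efficiency at least 2-fold lower, beside 30.1% of all genes. The transcripts of these 4 have 42.4% to 46.0% GC. Of all genes with up to 43.8% GC 81.3% were lower, and of those from there to 49.5% GC 54.7%. HSPA4, a cytosolic HSP110 like HSPH1, was at 37.0 and 32.1 FPKM in control input and polyribosome RNA and at 57.2 and 2.94 FPKM in knockdown-labelled cells, an efficiency change of -3.69. HSP90B1, the endoplasmic reticulum HSP90, changed by -3.27, HSPA9, the mitochondrial HSP70, by -2.84 and HSPA5, the endoplasmic reticulum HSP70, by -2.31. TRAP1, the mitochondrial HSP90, whose transcript has 58.2% GC, changed by -0.04. HSPA2, an HSP70 best known from testis, was at 1.13 and 1.66 FPKM in control and 18.1 and 13.2 FPKM in the other pair. HSPA2 passed the filter only through that pair, so that the size of its efficiency change depends on the added constant. Its transcript has 43.9% GC, and its efficiency changed by -0.75 (0.30 with the trend on GC content and length removed). With the columns exchanged HSPA4, HSP90B1, HSPA9 and HSPA5 were at 4.08, 4.26, 2.44 and 1.66, and TRAP1 and HSPA2 at -0.64 and 0.11.

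The partner genes were taken as whole lists, and their counts stand beside 30.1% of all genes at least 2-fold lower in efficiency and 12% higher (6.29% lower and 27.8% higher with the columns exchanged). Of 18 HSP90 co-chaperones past the filter (22 listed), 7 had a lower and 1 a higher efficiency, with a median change of -0.59. With the columns exchanged, 3 were lower and 6 higher. SUGT1, which links HSP90 to kinetochore assembly, was at -3.10 (2.56 exchanged) and CACYBP, a partner of the ubiquitin ligase SIAH1, at -2.66 (1.82). STUB1, the ubiquitin ligase CHIP that tags chaperone clients, was at 0.73 (-1.10) and PIH1D1, of the R2TP complex, at 1.16 (-1.04). Of 6 HSP70 and HSP110 genes past the filter that are no members (11 listed), 4 were lower and 0 higher, against 0 and 4 exchanged. Their median was -2.02 (1.78 exchanged), and HYOU1, an HSP110 of the endoplasmic reticulum, was at -0.53 (-0.14). HSPA2, among these 6, passed the filter only through the knockdown-labelled libraries, so that its -0.75 (0.11) depends on the added constant. With libraries rescaled to one sum, 5 of the 6 were lower, beside 35.6% of all genes. Of 11 HSP70 co-chaperones (14 listed), 3 were lower and 0 higher, with a median of -0.37, against 0 and 3 exchanged. Among them was ST13, which joins HSP70 to HSP90, at -2.61 (2.05). BAG2, an exchange factor, passed the filter only through the knockdown-labelled libraries (0.19 and 0.02 FPKM in control), so that its -2.35 (2.79) is set by the added constant. Without it, a choice made after its values were seen, 2 of 10 were lower. HSPBP1 and SGTA were at 0.47 (-0.91) and 0.61 (-0.77). Of 21 J-domain genes (38 listed), 9 were lower and 1 higher, with a median of -0.46, against 0 and 7 exchanged. DNAJA1, which stimulates HSP70, was at -2.87 (2.07) and DNAJC7 at -2.82 (2.28), while DNAJC19 was at 0.79 (0.17) and DNAJC4 at 2.40 (-0.89). Of 14 mitochondrial chaperone and protease genes (16 listed), 3 were lower and 0 higher, with a median of -0.13, against 1 and 2 exchanged. The protease genes YME1L1 and CLPP were at -2.21 (3.09) and 0.58 (-1.07). With the trend on GC content and length removed, 17.5% of all genes were lower in efficiency and 5.32% higher. In that form 6 of 18 HSP90 co-chaperones, 3 of 6 HSP70 and HSP110 genes and 2 of 11 HSP70 co-chaperones were lower. In each of these lists 0 were higher. Of the 21 J-domain genes 5 were lower and 2 higher, and of the 14 mitochondrial genes 2 were lower and 1 higher.

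The heat shock factor HSF1 was at 102 and 80.4 FPKM in control input and polyribosome RNA and at 80.1 and 211 FPKM in those of knockdown-labelled cells. Its input change was -0.35 and its efficiency change 1.73, and with the columns exchanged these were 1.04 and -1.04. Of 8 heat shock factors and regulators past the filter (10 listed), 2 had a higher efficiency, HSF1 and DEDD2 (1.28, and -0.97 exchanged), and 0 a lower one, against 1 higher and 1 lower exchanged. The lowest were VCP, an ATPase that extracts ubiquitinated proteins, at -0.86 (0.018) and EEF1A1, the translation elongation factor, at -0.78 (1.51). In input 0 of these 8 genes passed 2-fold in either direction, and 2 were higher and 1 lower exchanged. Of 23 genes listed as HSF1 targets (27 listed), which the other lists share in part, 5 were at least 2-fold higher in input and 1 lower, beside 13.2% and 14.4% of all genes, with a median of 0.41. With the columns exchanged 3 were higher in input and 9 lower, beside 15.9% and 31.8% of all genes, with a median of -0.12. In efficiency 11 of the targets were lower and 1 higher in the header's order, with a median of -0.97, against 0 and 8 exchanged. With the trend on GC content and length removed, 9 of the targets were lower and 0 higher, beside 17.5% and 5.32% of all genes. Of the 8 factors and regulators 0 passed 2-fold in efficiency in that form. RGS2, a regulator of G protein signalling, was at 0 and 0.07 FPKM in control and 104 and 20.3 FPKM in knockdown-labelled cells. UBB, a ubiquitin gene, was at 0.58 and 0.57 against 3124 and 2786 FPKM. Both were under 1 FPKM in both control libraries and passed the filter only through the knockdown-labelled ones. Without RGS2 and UBB, again a choice made after their values were seen, 3 of 21 targets were higher in input and 10 were lower in efficiency. ZFAND2A, which binds the proteasome under stress, was at 0.86 (-0.70). Of the small heat shock genes HSPB8, which works with BAG3 in selective autophagy, was lower in both knockdown-labelled libraries like HSPB1, at 28.4 and 26.5 FPKM in control and 5.07 and 5.25 FPKM in knockdown-labelled cells. HSPB11, listed with them by its name only, was at 58.0 and 79.4 against 102 and 41.3 FPKM. HSPA6, an HSP70 gene that is nearly silent without stress, was at 0.14 to 0.26 FPKM in every library.

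Likeness of pattern was measured as the distance between the 4 values of log2(FPKM + 1) of 2 genes, each centred on its own mean, among the 5625 genes whose mean reached 10 FPKM. The nearest genes to HSP90AA1 were METAP2 (distance 0.51), BCAS2 (0.57) and PLS3 (0.61), with efficiency changes of -4.10, -3.79 and -3.67. Those of HSPD1 were RPL36A-HNRNPH2 (0.29), NCL (0.33) and GBAS (0.34). HSPA1A was nearest to MICB (0.13), RARRES3 (0.19) and HLA-C (0.21), and HSPA1B to DHRS7B (0.16), MRPS17 (0.21) and DGCR8 (0.23). MICB (1.18 and 1.26 FPKM in control) and RARRES3 (1.82 and 1.59) reached the mean of 10 FPKM only through the knockdown-labelled libraries. Their distances therefore depend on the added 1 FPKM. HSPB1 was nearest to RAB32, FSTL3 and DBN1, at 0.11, 0.11 and 0.12. HSP90AB1 was nearest to ASCC1, COPS3 and MCM4, at 0.10, 0.10 and 0.11. The other nearest genes were LIPA, RAB12 and KPNA6 for HSPA8, NPC2, ECE1 and TXLNA for DNAJB1, C14orf169, TCTEX1D2 and TM2D2 for HSPE1, and NCKAP1, TAB2 and HACD2 for HSPH1, at distances from 0.04 to 0.35. Among the 10 genes themselves the closest pair was HSP90AB1 and HSPA8 (0.57), followed by HSPA1B and HSPE1 (0.60), and HSPB1 was farthest from any other, at 2.78.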

How the data were processed

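RNA of 4 libraries was measured, 1 per group, grouped by sample title, with columns matched by their header names. The authors deposited FPKM per gene, per the file header. The submitters' processing notes name TopHat and the builds hg19 and GRCh37, while counting tool, annotation and strand setting were not given in the sources used here. Poly(A) RNA and a stranded kit were used, per the labels. A polyribosome over input ratio per gene was deposited too, in which 5 had been added to both FPKM (largest gap 5e-10).

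Differences were computed on log2(FPKM + 1) with Python 3.11.15, which understates changes of low genes. Background counts used the 7379 genes whose mean reached 5 FPKM, including rows with no gene name (28 in the whole table). Values are rounded to 0.01 FPKM, so whole reads were not recovered and no interval was computed. GC content and length came from 1 GENCODE 29 transcript per gene (APPRIS principal, then longest coding sequence), matched for 99.5% of these genes, and a quadratic trend was removed in 1 alternative. Scripts were tested on simulated data. The rule named the 10 members, 6 relatives, NSUN6, the 2 highest and 2 lowest genes of each of 8 lists by efficiency change, and the 3 nearest genes of each member. RGS2, UBB, HSPA6, HSPE1-MOB4 and the cell markers were named besides. Members, rule and lists were chosen with earlier results of these data known. Alternatives were other added constants (0.1 and 5), rescaled or centred libraries, exchanged knockdown columns, the GC and length trend, HSPA1A and HSPA1B added, and a filter at 1 FPKM or none.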

Additional observations from a re-analysis of the deposited data

Results flagged for a closer look

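For 4 genes polyribosome RNA was above input in control cells and below it in knockdown-labelled cells, with a difference of at least 2-fold between the contrasts. The log2 efficiency change was -4.65 for HSP90AA1, -3.88 for HSPD1, -2.02 for HSP90AB1 and -1.37 for HSPA8. With 1 library per group this difference was not tested, and with the knockdown-labelled columns exchanged all 4 went the other way.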

How the results depend on the processing

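No paired analysis was possible because there is 1 library per group, and no library could be left out. The exchange of the 2 knockdown-labelled columns decided most results, by its construction. Efficiency in knockdown-labelled cells was then 4.55 for HSP90AA1, 3.56 for HSPD1, 3.08 for HSPH1, 1.51 for HSP90AB1 and 1.25 for HSPA8, with 5 genes at least 2-fold higher, 0 lower and a median of 0.83 (28.8% and 8.62% of all genes). The efficiency change was 4.44, 3.24, 4.32, 1.01 and 1.12 for the same genes, with 5 at least 2-fold higher, 0 lower and a median of 0.48 (27.8% and 6.29% of all genes). For input the counts were 4 higher and 4 lower (15.9% and 31.8%), the median -0.024, HSP90AB1 -0.23 and HSPD1 -1.62. For polyribosome RNA they were 6 higher and 1 lower (12.7% and 13.97%), the median 1.34, HSP90AA1 0.43, HSPH1 1.38 and HSPD1 1.62. With 5 added in place of 1 FPKM, 0 genes were at least 2-fold lower on control polyribosomes, where HSPH1 had been. Once the trend on GC content and length was removed, the median polyribosome change of the 10 genes went from -0.34 to 0.16. No member value that began past 2-fold changed sign under any other alternative. The efficiency change of HSPB1, which began within 2-fold, went from 0.42 to -1.18 with the trend on GC content and length removed. The count of genes at least 2-fold lower in efficiency change went from 5 to 4 with 5 added, beside 21.8% of all genes. It went to 6 with libraries rescaled to one sum, beside 35.6%. Rescaling libraries to one sum shifted the median efficiency change of all genes by -0.25 and the median polyribosome change by -0.15. It moved the share of all genes at least 2-fold higher in efficiency change from 12% to 7.91%. Removal of GC content and length gave 5.32% higher and 17.5% lower, a filter at a mean of 1 FPKM changed the control share lower to 1.20%, and no filter gave 6.18% higher and 19.6% lower for efficiency change. Read depth is unknown, so the counting error of low genes such as HSPH1 cannot be stated.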
